A study of Mus musculus with 2 samples.

Results

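Type I interferon-stimulated genes were followed in single-cell transcriptomes of GR-1+ cells from mouse breast tumors. The 39 genes were taken from a list of symbols, and all of them are among the 28692 genes of the count tables. The tumors grew from 4T1p, the parental 4T1 line, a triple-negative mammary carcinoma that resists anti-PD1, or from 4T1m, a polyclonal derivative of it made with the mutagen MNNG that responds. Both were implanted in the mammary fat pad of adult female BALB/c mice. All animals behind these libraries received anti-PD1, and tumors were taken after 2 weeks of treatment. GR-1, the epitope shared by Ly6G and Ly6C, was the only selection marker, and 1 library was made per tumor line with the 10x Genomics 3′ v3 kit. The number of animals per library was not given in the sources used here, and untreated cells and IgG-treated tumors were not analysed here. The questions were which of the genes are carried by granulocytic and by macrophage cells, in what share of cells, and how this differs between the libraries.

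Type I interferons are secreted by cells that sense nucleic acids or microbial products, and bind the receptor chains IFNAR1 and IFNAR2 on neighboring cells. The receptor kinases JAK1 and TYK2 then activate STAT2, which joins IRF9 in the factor ISGF3. ISGF3 binds the interferon-stimulated response element, ISRE, in the promoters of many such genes, whose products block viral entry, replication and translation or adjust the response itself. Tumor neutrophils and macrophages can both respond, and many of these genes also react to interferon gamma, which acts through the GAS element.

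The ISRE core was searched as GAAANNGAAA, or TTTCNNTTTC for the other strand, in the 300 bases from 250 before to 50 after each transcription start, with sequences from RefSeq on GRCm38.p6. Promoters were found there for 31 of the 39 genes, and 15 of the 31 (48.4%) held at least 1 core. Of all 27025 genes with such a promoter, 3.99% held one. The GAS letters TTCNNNGAA, which read the same on both strands, occurred in 7 of the 31 promoters (22.6%) and in 9.55% of all. ISRE cores can overlap each other, as in Isg15, where 3 of them began at -78, -72 and -66 from the start. Usp18, Rtp4, Mx1, Dhx58, Parp9, Parp14, Zbp1 and Tor3a had no promoter in the table. These matches describe the letters of the windows and not bound sites. The 6 stretches shown here were picked among the members with a core upstream of the start. They are given 5′ to 3′ on the strand of the gene, with the cores and some flanking bases, and the capitals mark the cores. Isg20, Lgals3bp, Irf7, Cmpk2 and Ifit2, which stand at the ends of comparisons below, held no core in their windows. Rsad2 lies on the minus strand at chr12:26456533-26456602, Ifit1 on the plus strand at chr19:34640755-34640843, Ifit3 on the plus strand at chr19:34583343-34583446, Isg15 on the minus strand at chr4:156200845-156200926, Bst2 on the minus strand at chr8:71537557-71537632 and Oas3 on the minus strand at chr5:120777695-120777764.
Rsad2: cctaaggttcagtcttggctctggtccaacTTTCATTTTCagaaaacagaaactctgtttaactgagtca
Ifit1: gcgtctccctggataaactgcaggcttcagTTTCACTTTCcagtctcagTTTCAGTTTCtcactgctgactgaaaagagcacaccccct
Ifit3: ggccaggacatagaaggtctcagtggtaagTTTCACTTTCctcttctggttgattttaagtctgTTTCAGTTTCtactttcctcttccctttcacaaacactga
Isg15: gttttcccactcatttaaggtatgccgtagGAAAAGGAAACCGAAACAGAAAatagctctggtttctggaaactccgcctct
Bst2: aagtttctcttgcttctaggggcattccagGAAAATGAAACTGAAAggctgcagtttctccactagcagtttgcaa
Oas3: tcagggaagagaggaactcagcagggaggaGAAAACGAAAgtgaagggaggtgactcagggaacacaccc
Several members are neighbors on their chromosomes. Rsad2 and Cmpk2 lie 12752 bases apart on chromosome 12, Ifit1, Ifit2 and Ifit3 share a cluster on chromosome 19, Oasl1 and Oasl2 lie 11006 bases apart on chromosome 5, and Parp9 and Dtx3l overlap by 681 bases on chromosome 16.

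The library labelled 4T1p held 1641 barcodes with a median of 2066 UMIs, and that labelled 4T1m 2749 barcodes with a median of 2763, and no barcode occurred in both. The median depth stated for one tumor line in the study is that of the library labelled for the other. The names 4T1p and 4T1m therefore stand for the labels of the libraries, and whether a gene is higher in the one or the other depends on these labels. After limits on detected genes (250 to 5000), UMIs (up to 27000) and the mitochondrial share, 1128 barcodes of 4T1p and 2092 of 4T1m remained. These were clustered with 142 listed interferon genes left out, and 14 clusters were found. The further listed ligands, receptors and kinases, signal transducers, upstream sensors and brakes, except Irf1 and Socs1, were not left out. Genes that go with the response but are on no list stayed in as well. The part of all these genes in the clusters was not tested. Of the 14 clusters, 0, 3, 7 and 9 carried granulocytic markers such as S100a8, Csf3r and Cxcr2 and held 251 cells of 4T1p and 1020 of 4T1m. Another 7 carried macrophage markers such as Csf1r, Apoe and C1qa and held 854 and 988 cells. Clusters 12 and 13 carried B cell and T cell markers, and cluster 11, with 44 cells, was left unnamed. The macrophage-like clusters 1, 4, 5 and 8 were poor in RNA, with medians of 983 to 1428 UMIs per cell, and a UMI of Ptprc, which encodes the leukocyte antigen CD45, was found in only 23.3% to 25.4% of their cells. The results are also given without these clusters. Markers of the other cell types were scarce in both lineages. Summed levels of the granulocytic markers were 173172 and 170201 CPM in granulocytic-like cells against 929 and 1435 CPM in macrophage-like cells of 4T1p and 4T1m, and plasmacytoid dendritic cell markers reached at most 4.42 CPM in either lineage. Hemoglobin and other erythroid markers stood at 452 and 1545 CPM in the granulocytic-like and macrophage-like cells of 4T1m and at no more than 27.8 CPM in those of 4T1p. Their part in the results was not tested.

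Together the genes made up 1.00% of all UMIs in granulocytic-like cells of 4T1p and 0.435% in those of 4T1m. Levels are given as CPM, the UMIs of a gene summed over the cells of a group and divided by all UMIs of that group, times 1000000, and the 95% intervals (exact Poisson for levels, exact binomial for shares and ratios) cover counting error only. There was 1 library per condition, so no p-value was computed, and a gene was called when its level differed by at least 2-fold, that is by 1 on the log2 scale. The summed level was 10039.6 CPM (9825 to 10258) in granulocytic-like cells of 4T1p, 4348 CPM (4275 to 4421) in those of 4T1m, 6173 CPM (6102 to 6245) in macrophage-like cells of 4T1p and 5084 CPM (5032 to 5136) in those of 4T1m. Relative to all UMIs of a group, granulocytic-like cells thus held both the highest and the lowest level of the myeloid groups, and macrophage-like cells lay between. The order of the lineages in 4T1m is given for these totals only. The median log2 ratio of the members there, granulocytic-like over macrophage-like cells, was -0.13. With the most abundant genes left out of the totals this median was 0.24. Ifitm3, the most abundant member, gave 26817 of the UMIs of both lineages. Without it the order was the same, at 7700.0, 2900.0, 4261 and 3504 CPM. B cell-like and T cell-like cells were set beside the myeloid groups. They held 1603 CPM (1414 to 1811) and 1826 CPM (1615 to 2056) in 4T1m, at median depths of 3772 and 5424 UMIs per cell, below every myeloid group. Free RNA and the cells' own transcripts cannot be told apart in these levels, so they do not measure free RNA.

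**Figure D1:**
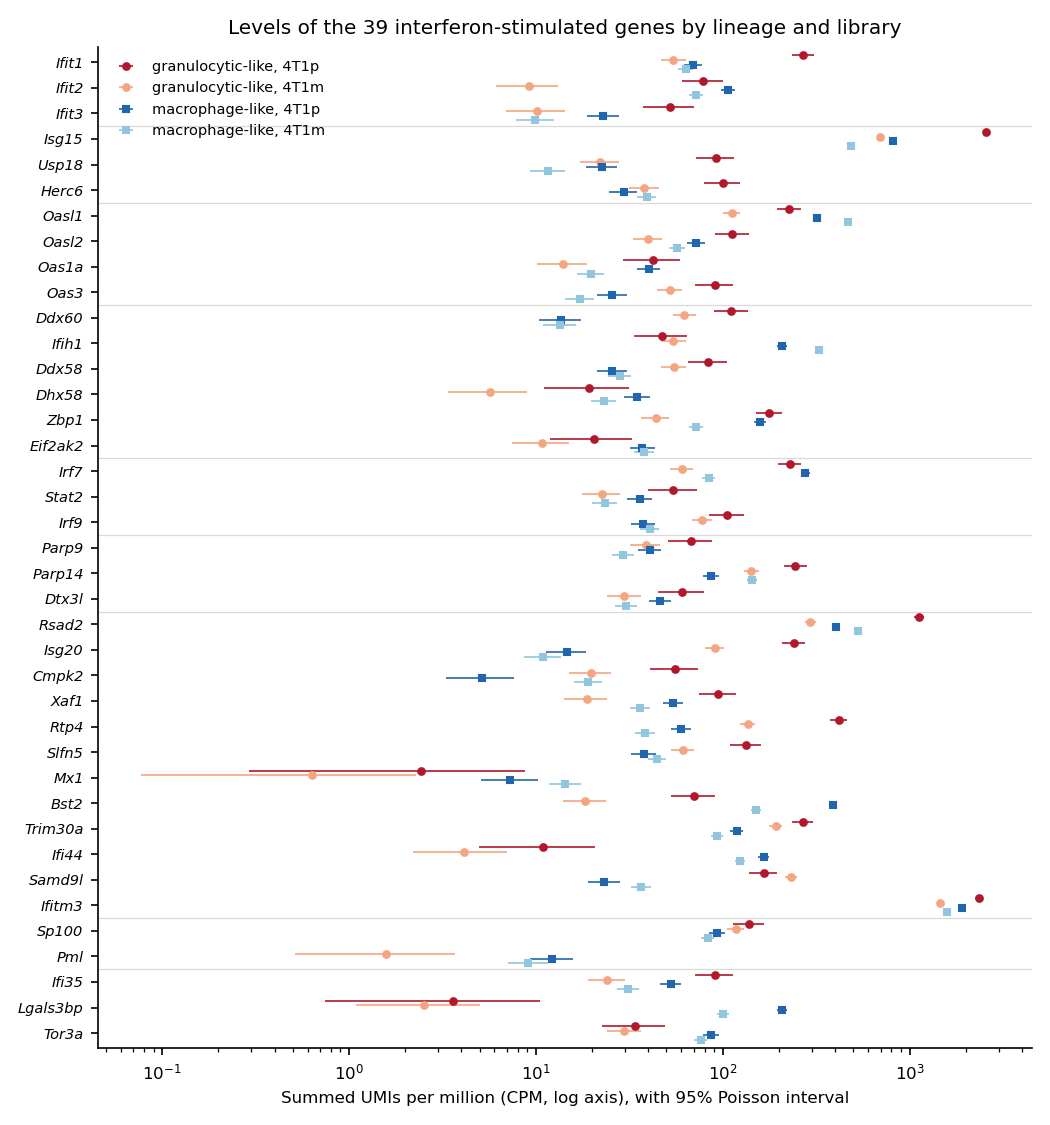
Levels of the 39 genes (CPM, log axis) in granulocytic-like (circles) and macrophage-like cells (squares) of both libraries, with exact 95% Poisson intervals and genes grouped by role. Isg15 and Ifitm3 lie farthest right, the circles of 4T1p lie right of those of 4T1m for most genes, and Pml, with a count of 0 in granulocytic-like cells of 4T1p, has no point there.

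In granulocytic-like cells 36 of the 39 genes reached 20 UMIs in both libraries together, and Mx1, Lgals3bp and Pml did not. Of the 36, 23 were lower in 4T1m by at least 2-fold and none was higher by that much. Of all 6349 genes that passed the same limit, 5.73% were lower and 8.79% higher by at least 2-fold. The median log2 ratio of 4T1m over 4T1p was -1.40 over the members and 0.03 over all genes, and 34 of 36 members were below 0. In macrophage-like cells all 39 genes passed the limit, and 6 were lower in 4T1m by at least 2-fold, 1 was higher and 32 lay between. Of all 10395 genes tested there, 2.91% were lower and 8.12% higher by at least 2-fold. The median was -0.42 over the members and 0.10 over all genes, and 27 of the 39 were below 0. Both comparisons use the same pair of libraries, so they are not independent of each other.

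**Figure D2:**
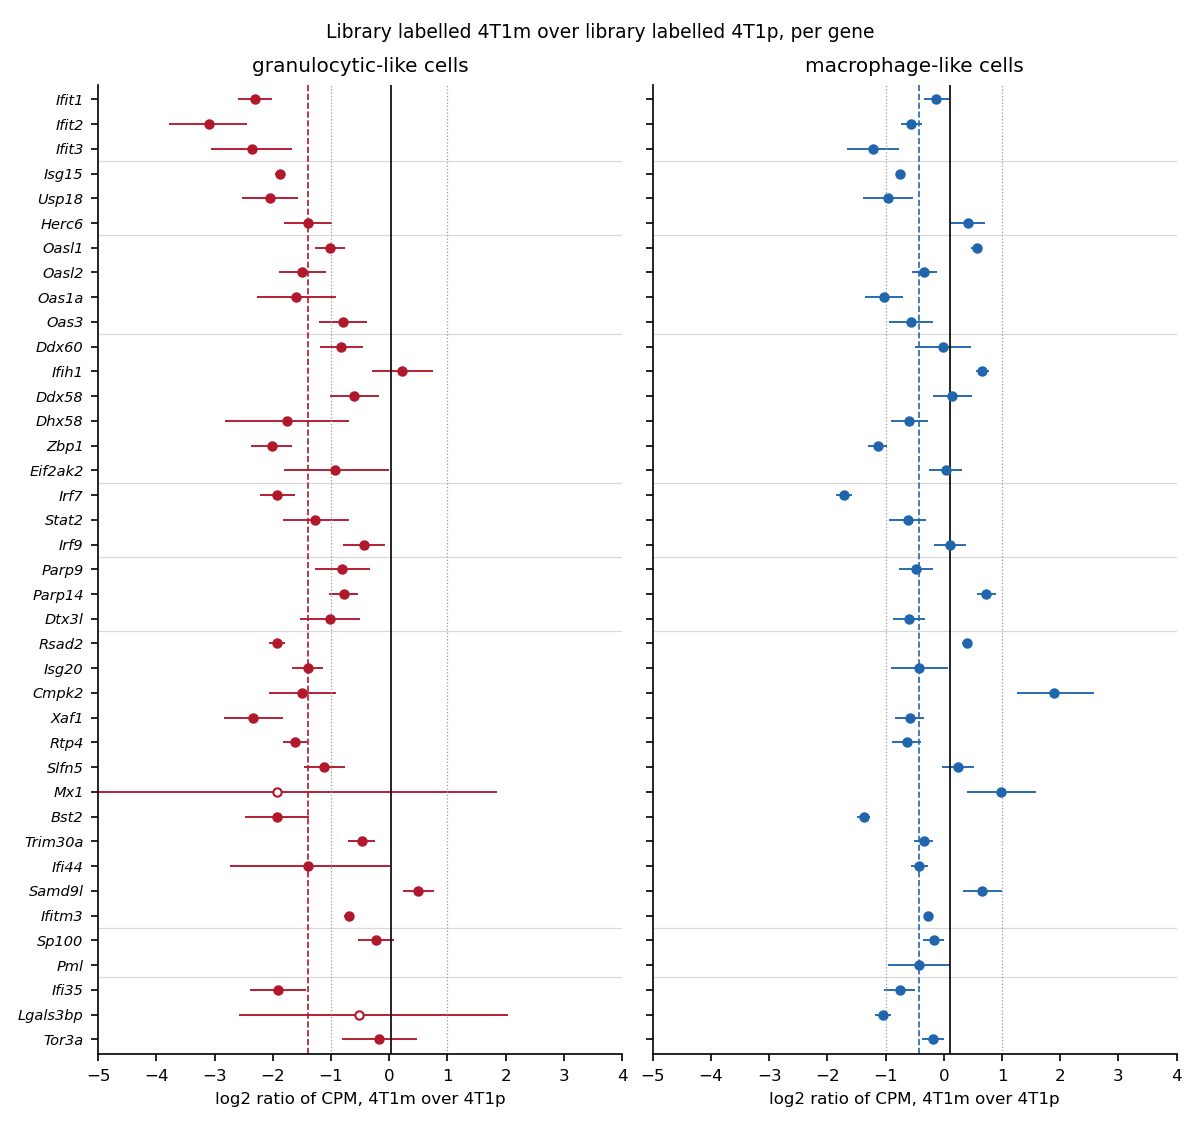
Log2 ratio of CPM of 4T1m over 4T1p for each gene in granulocytic-like (left) and macrophage-like cells (right), with exact 95% binomial intervals. Dashed lines mark the median of the members (-1.40 and -0.42), black lines the median of all genes (0.03 and 0.10), dotted lines a 2-fold difference, open points genes under 20 UMIs, and the interval of Mx1 on the left runs past the axis. Pml is not drawn on the left because its count in 4T1p was 0.

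In the following, each gene is given with its level in granulocytic-like cells of 4T1p, in those of 4T1m, in macrophage-like cells of 4T1p and in those of 4T1m, in this order. Values in parentheses after a log2 ratio are the bounds of its 95% interval. The IFIT genes, which encode proteins that bind foreign RNA and block its translation, had the lowest median of all role groups in granulocytic-like cells, -2.36 for the log2 ratio of 4T1m over 4T1p. Ifit1 stood at 269, 54.5, 69.5 and 63.6 CPM. Ifit2 stood at 78.5, 9.19, 107 and 72.4 CPM. Ifit3, whose count is uncertain because the near-identical copy Ifit3b can share its reads, stood at 51.9, 10.1, 23.0 and 9.95 CPM. All 3 were lower in granulocytic-like cells of 4T1m, with log2 ratios of -2.30 (-2.60 to -2.01) for Ifit1, -3.09 (-3.78 to -2.44) for Ifit2 and -2.36 (-3.06 to -1.66) for Ifit3. In macrophage-like cells the same ratios were -0.13 (-0.34 to 0.08), -0.56 (-0.74 to -0.38) and -1.21 (-1.66 to -0.77), so the interval of Ifit1 held 0 and only Ifit3 passed 2-fold.

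Isg15 encodes a ubiquitin-like protein that is joined to other proteins, Herc6 the ligase that does this in mice, and Usp18 the protease that removes it and damps the receptor. Isg15 stood at 2569, 699, 819.8 and 486 CPM, and after thinning every cell to 1000 UMIs a UMI of it was found in 61.6%, 33.2%, 33.3% and 22.6% of cells. Usp18 stood at 91.8, 22.2, 22.6 and 11.6 CPM. Herc6 stood at 100.3, 38.0, 29.5 and 39.1 CPM. All 3 were lower by at least 2-fold in granulocytic-like cells of 4T1m, with log2 ratios of -1.88 (-1.96 to -1.79), -2.05 (-2.54 to -1.56) and -1.40 (-1.81 to -0.98). In macrophage-like cells Isg15 and Usp18 were lower in 4T1m by less than 2-fold, with log2 ratios of -0.75 (-0.82 to -0.69) and -0.96 (-1.39 to -0.53), whereas Herc6 was higher by less than 2-fold (0.41, 0.11 to 0.71).

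The OAS family senses double-stranded RNA and makes oligoadenylates that activate RNase L, although the Oasl1 product lacks this activity. Oasl1 stood at 227, 112, 319 and 471 CPM. Oasl2 stood at 112, 39.9, 71.9 and 57.1 CPM. These neighbors differed in their order, since Oasl1 was highest in macrophage-like cells of 4T1m and Oasl2 in granulocytic-like cells of 4T1p. Oas1a, which has near-identical copies such as Oas1g, stood at 42.3, 13.9, 40.2 and 19.8 CPM. Oas3 stood at 90.6, 52.0, 25.6 and 17.3 CPM. In granulocytic-like cells Oasl1, Oasl2 and Oas1a were lower in 4T1m by at least 2-fold (-1.02, -1.49 and -1.60) and Oas3 by less (-0.80, -1.20 to -0.39). In macrophage-like cells Oasl1 was higher in 4T1m (0.56, 0.47 to 0.65) and Oas1a lower by just over 2-fold (-1.03, -1.35 to -0.70).

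The 6 sensors had a median log2 ratio of -0.88 in granulocytic-like and 0.01 in macrophage-like cells, and 2 and 1 of them were lower in 4T1m by at least 2-fold. Ifih1, which encodes the long-RNA sensor MDA5, stood at 47.1, 54.5, 208 and 329 CPM. Ddx58, which encodes RIG-I, stood at 83.3, 54.8, 25.6 and 28.2 CPM. Dhx58, whose product LGP2 adjusts both, stood at 19.3, 5.70, 34.9 and 23.1 CPM. Ifih1 was thus higher in macrophage-like cells and Ddx58 in granulocytic-like cells, and neither differed by 2-fold between the libraries. The log2 ratios in granulocytic-like cells were 0.21 (-0.30 to 0.75) for Ifih1 and -0.60 (-1.01 to -0.18) for Ddx58, and those in macrophage-like cells 0.66 (0.56 to 0.77) and 0.14 (-0.19 to 0.48). Zbp1, a sensor of Z-form nucleic acids that can start necroptosis, stood at 178, 43.7, 159 and 72.0 CPM. Eif2ak2, which encodes the translation-blocking kinase PKR, stood at 20.5, 10.8, 37.2 and 38.0 CPM. Ddx60, a helicase that assists RIG-I, stood at 111, 62.4, 13.6 and 13.4 CPM. In granulocytic-like cells Zbp1 (-2.02, -2.37 to -1.68) and Dhx58 (-1.76, -2.82 to -0.69) were lower in 4T1m by at least 2-fold. Zbp1 was also the sensor called in macrophage-like cells (-1.14, -1.30 to -0.98).

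Among the factors that carry the signal, Irf7, which amplifies the production of type I interferons, stood at 228, 60.2, 276 and 84.0 CPM. It was the member with the lowest ratio in macrophage-like cells (-1.72, -1.86 to -1.58) and had a similar ratio in granulocytic-like cells (-1.92, -2.22 to -1.62). Among the 3 factors it alone was called in both lineages. Stat2 stood at 54.4, 22.5, 35.9 and 23.4 CPM. Irf9 stood at 105, 77.7, 37.7 and 40.6 CPM. Both are parts of ISGF3, and Stat2 passed 2-fold in granulocytic-like cells (-1.27, -1.83 to -0.70) whereas Irf9 did not (-0.44, -0.79 to -0.07). The ADP-ribosyltransferase genes Parp9 and Parp14 and the ligase gene Dtx3l, whose product pairs with PARP9, had a median log2 ratio of -0.81 in granulocytic-like cells. Parp14 stood at 245, 142, 86.5 and 144 CPM. Parp9 stood at 67.6, 38.7, 40.7 and 29.3 CPM. Dtx3l stood at 60.4, 29.8, 46.3 and 30.5 CPM. Only Dtx3l reached 2-fold between the libraries in granulocytic-like cells (-1.02, -1.53 to -0.49), and Parp14 was lower there (-0.78, -1.03 to -0.54) but higher in macrophage-like cells of 4T1m (0.73, 0.57 to 0.90).

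The antiviral effectors were the largest group, and 8 of the 11 with enough UMIs were lower by at least 2-fold in granulocytic-like cells of 4T1m. Rsad2, which encodes viperin, an enzyme that makes a chain-terminating nucleotide, stood at 1123, 295, 403 and 532 CPM. Cmpk2, its neighbor, a mitochondrial nucleotide kinase gene, stood at 55.6, 19.7, 5.16 and 19.1 CPM. Both were lower in granulocytic-like cells of 4T1m, with log2 ratios of -1.93 (-2.06 to -1.80) for Rsad2 and -1.50 (-2.07 to -0.92) for Cmpk2. Summed over macrophage-like cells both were higher in 4T1m, with 0.40 (0.32 to 0.48) and 1.89 (1.25 to 2.58). Cmpk2 was the only member higher by at least 2-fold there, from 24 UMIs in 4T1p and 138 in 4T1m. Rsad2 was lower in 4T1m in cluster 1 (131 and 22.0 CPM) and cluster 10 (567 and 217 CPM), and higher in the other macrophage-like clusters. After thinning, Rsad2 was found in 13.2% (10.5% to 16.3%) and 17.3% (14.6% to 20.1%) of macrophage-like cells of 4T1p and 4T1m. Cmpk2 was found in 0.529% (0.109% to 1.54%) and 1.05% (0.453% to 2.05%). For both genes these intervals overlapped, and intervals of UMI ratios do not cover the spread between cells. Isg20, an RNA exonuclease gene, stood at 240.4, 91.0, 14.6 and 10.9 CPM. Rtp4 stood at 418, 136, 59.8 and 38.4 CPM. Xaf1, which encodes an antagonist of the apoptosis inhibitor XIAP, stood at 94.2, 18.7, 54.2 and 36.1 CPM. These 3 genes were highest in granulocytic-like cells of 4T1p and lower in those of 4T1m, with log2 ratios of -1.40, -1.62 and -2.33.

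Slfn5, a gene of the Schlafen family, stood at 133, 61.2, 37.9 and 44.6 CPM. Trim30a, whose product restrains NF-kB signaling, stood at 268, 193, 119 and 93.6 CPM. Samd9l stood at 165, 233, 23.2 and 36.8 CPM and was one of 2 members, with Ifih1, above 0 in granulocytic-like cells of 4T1m over 4T1p (0.49, 0.23 to 0.77). Samd9l was also higher in macrophage-like cells of 4T1m (0.66, 0.33 to 1.00), so it did not share the direction of most members. Bst2, which encodes tetherin, a membrane protein that holds budding virus on the cell, stood at 70.1, 18.4, 391 and 151 CPM. Ifi44 stood at 10.9, 4.12, 166 and 124 CPM. Both were higher in macrophage-like than in granulocytic-like cells, and Bst2 was lower in 4T1m in both lineages, with log2 ratios of -1.93 (-2.48 to -1.38) in granulocytic-like and -1.37 (-1.48 to -1.27) in macrophage-like cells. Ifitm3, a protein that blocks fusion of virus in endosomes, stood at 2339.6, 1448, 1912 and 1579 CPM. It was lower in 4T1m by less than 2-fold, with log2 ratios of -0.69 (-0.77 to -0.61) in granulocytic-like and -0.28 (-0.32 to -0.24) in macrophage-like cells. Mx1, a dynamin-like GTPase gene, had only 142 UMIs in both lineages, and 34 and 104 of them lay in macrophage-like cells of 4T1p and 4T1m, at 7.32 and 14.4 CPM.

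The remaining members were proteins of nuclear bodies and genes of mixed roles. Sp100 and Pml encode proteins of nuclear bodies. Sp100 stood at 138, 117, 93.6 and 83.1 CPM, with a log2 ratio whose interval held 0 in granulocytic-like cells (-0.23, -0.54 to 0.08). Pml had 128 UMIs in both lineages, none of them in granulocytic-like cells of 4T1p, where the interval of a count of 0 reaches 4.46 CPM. Ifi35 stood at 90.6, 24.1, 52.7 and 31.2 CPM and was lower in granulocytic-like cells of 4T1m (-1.91, -2.39 to -1.43). Lgals3bp, a secreted glycoprotein gene, stood at 3.62, 2.54, 207 and 101 CPM. Tor3a, a torsin family ATPase gene, stood at 33.8, 29.8, 86.5 and 76.3 CPM. Lgals3bp was lower in macrophage-like cells of 4T1m by just over 2-fold (-1.04, -1.18 to -0.90). The intervals of Tor3a held 0 in both lineages, with log2 ratios of -0.18 (-0.80 to 0.48) in granulocytic-like and -0.18 (-0.37 to 0.01) in macrophage-like cells.

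Within a library, both lineages share the droplets and the free RNA, so granulocytic-like over macrophage-like cells was compared library by library. In 4T1p the median log2 ratio of the members was 0.73, with 17 higher and 7 lower in granulocytic-like cells by at least 2-fold. Of all 9108 genes tested there, 11.3% were higher and 47.9% lower, and the median of all genes was -0.92. In 4T1m the median of the members was -0.13, with 6 higher and 11 lower by at least 2-fold, but the sign of the median depended on the scaling, since it was 1.16 relative to the median of all genes and 0.24 with the most abundant genes left out of the totals. Of the 10085 genes tested there, 10.5% were higher and 55.9% lower, and their median was -1.29. In both libraries the same genes stood at the ends. Isg20 had the highest ratio in both, 4.04 (3.63 to 4.46) in 4T1p and 3.06 (2.69 to 3.44) in 4T1m. Lgals3bp had the lowest, -5.84 (-8.12 to -4.29) from 3 UMIs in granulocytic-like cells of 4T1p and -5.31 (-6.53 to -4.33) from 8 in those of 4T1m. Ddx60 (3.04 and 2.22), Samd9l (2.83 and 2.66), Rtp4 (2.80 and 1.83), Oas3 (1.82 and 1.59) and Trim30a (1.17 and 1.04) were, with Isg20, higher in granulocytic-like cells by at least 2-fold in both libraries. Ifi44 (-3.93 and -4.91), Bst2 (-2.48 and -3.04), Ifih1 (-2.14 and -2.59) and Tor3a (-1.35 and -1.36), together with Lgals3bp and the sparse Mx1 and Pml, were lower in both. Others changed places. Rsad2 was higher in granulocytic-like cells of 4T1p (1.48, 1.36 to 1.59) and lower in those of 4T1m (-0.85, -0.95 to -0.75), Ifit1 went from 1.95 (1.70 to 2.21) to -0.22 (-0.48 to 0.03), and Cmpk2 from 3.43 (2.69 to 4.20) to 0.04 (-0.41 to 0.49). After thinning, 26 of the 39 genes had a UMI in a larger share of granulocytic-like than of macrophage-like cells in 4T1p, and 17 of the 39 did in 4T1m. The same count was not made over all genes, so these counts have no background to be read against.

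To see whether all cells of a lineage carried the response or only some, the members were split by their place in the list. The 20 at odd places scored each cell, and the 19 at even places were then read in the cells so chosen. Counts were thinned to 1000 UMIs per cell, so shallower cells were left out, namely 22 and 83 granulocytic-like cells and 287 and 223 macrophage-like cells of 4T1p and 4T1m. A cell with UMIs of at least 4 different scoring genes was called interferon-high. This cuts a continuous range and defines no cell type. In granulocytic-like cells 91 of 229 were high in 4T1p (39.7%, 33.4% to 46.4%) and 115 of 937 in 4T1m (12.3%, 10.2% to 14.5%). In macrophage-like cells 120 of 567 were high in 4T1p (21.2%, 17.9% to 24.8%) and 111 of 765 in 4T1m (14.5%, 12.1% to 17.2%). In granulocytic-like cells the intervals of the libraries did not overlap, here and under all 13 alternatives. Leaving out the low-RNA macrophage clusters, among these 13, could not change the shares of granulocytic-like cells. In macrophage-like cells they did not overlap here, but they did under 5 of the 13, namely thinning to 500 or 2000 UMIs, 6 scoring genes, the reading genes as scorers and at most 5% mitochondrial UMIs. Within 4T1p the share was larger in granulocytic-like than in macrophage-like cells, with intervals that overlapped under 2 of the 13, namely with Ptprc cells only and without the low-RNA clusters. In 4T1m the intervals of the lineages overlapped, and the order turned with the setting. At 2000 UMIs granulocytic-like cells (27.9%) lay below macrophage-like cells (37.1%), with the reading genes as scorers they lay above (4.70% against 2.09%), and in neither case did the intervals overlap. None of 33 B cell-like and 1 of 22 T cell-like cells of 4T1m was high, which allows a share of up to 10.6% in the B cell-like cells. Just under the cut, with 3 scoring genes, lay 30 and 113 granulocytic-like and 105 and 105 macrophage-like cells of 4T1p and 4T1m. At the cut, with 4, lay 26 and 44 granulocytic-like and 60 and 54 macrophage-like cells.

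**Figure D3:**
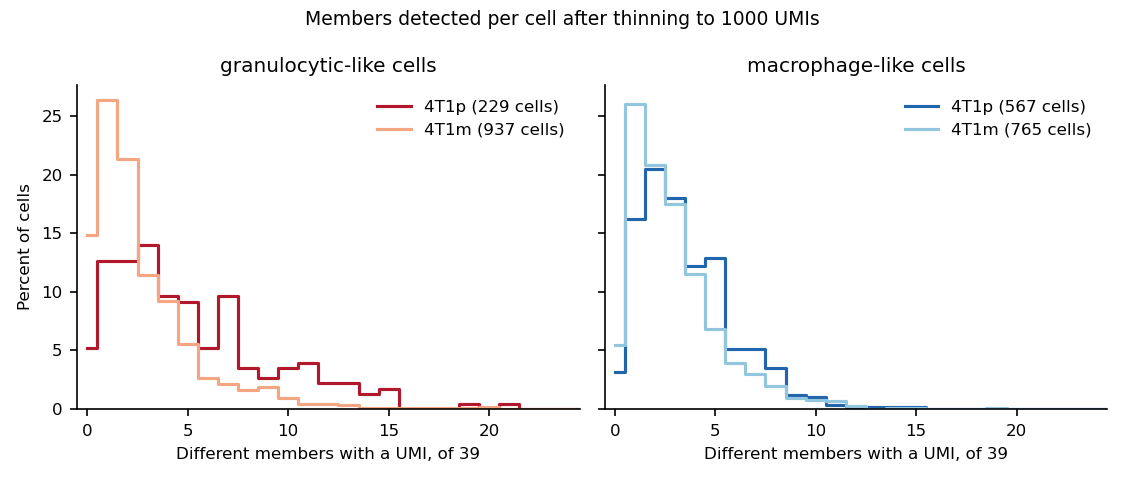
Percent of cells by the number of different members with a UMI after thinning to 1000 UMIs, in granulocytic-like (left) and macrophage-like cells (right) of 4T1p and 4T1m. In granulocytic-like cells of 4T1p the curve has a long right arm, with 21.8% of cells at 8 or more members against 6.51% in 4T1m, while macrophage-like cells reach 6.88% and 4.97%.

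Counted over all 39 genes, the granulocytic-like cells of 4T1p spread most widely. A median of 4 different members was found per cell there, with 1 at the 10th and 11 at the 90th percentile and a highest count of 21. In granulocytic-like cells of 4T1m the median was 2, and no member at all was found in 139 of 937 cells against 12 of 229 in 4T1p. Macrophage-like cells had medians of 3 in 4T1p and 2 in 4T1m, and 3.17% and 5.49% of cells held none. In granulocytic-like cells of 4T1p the interferon-high cells, 39.7% of cells, held 75.3% of the thinned UMIs of the reading genes. In those of 4T1m, 12.3% of cells held 42.6%. In macrophage-like cells 21.2% and 14.5% of cells held 35.8% and 33.6%. High and other granulocytic-like cells had similar depths before thinning, with medians of 2778 and 2925 UMIs in 4T1p and 2698 and 2658.5 in 4T1m. In macrophage-like cells high cells were deeper, with 7935.5 against 3158 UMIs in 4T1p and 10654 against 7505.5 in 4T1m, although all were thinned to the same depth before scoring. Granulocytic markers were less abundant in high than in other granulocytic-like cells of 4T1p, at 113487 against 207665 CPM, and of 4T1m, at 138052 against 175933 CPM. Macrophage markers stood at 1396 against 1296 CPM in high and other granulocytic-like cells of 4T1p and at 2042 against 975 CPM in those of 4T1m. In macrophage-like cells granulocytic markers stood at 1574 against 723 CPM in 4T1p and 2109 against 1292 CPM in 4T1m. The part of these markers in the differences was not tested.

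The reading genes were next compared between high and other cells, on unthinned levels. They were not used in scoring, but they belong to the same response and lie in the same cells, so their differences describe how the members go together. In granulocytic-like cells 15 of the 17 genes with at least 20 UMIs were higher in the high cells by at least 2-fold in 4T1p, with a median log2 ratio of 2.19, and 17 of 17 in 4T1m, with a median of 2.57. Of all genes with as many UMIs, 6.82% of 3096 in 4T1p and 5.15% of 5784 in 4T1m were higher by that much. In macrophage-like cells 11 of 19 were higher by at least 2-fold in 4T1p and 19 of 19 in 4T1m, with medians of 1.05 and 1.57. Of all genes, 2.64% of 8762 and 3.14% of 9615 were higher by that much, and the median of all genes lay between -0.06 and 0.00 in the 4 groups. Ifit1 stood at 726 CPM in high and 31.9 CPM in other granulocytic-like cells of 4T1p, and at 327 and 18.9 CPM in those of 4T1m. Cmpk2 stood at 161 and 1.88 CPM in 4T1p and at 113 and 6.16 CPM in 4T1m. Ifit3 gave 40 UMIs in high and 2 in other granulocytic-like cells of 4T1p, and 30 and 1 in those of 4T1m. Ifit3 was thus found almost only in the high granulocytic-like cells. Herc6 stood at 254 CPM in high and 20.7 CPM in other granulocytic-like cells of 4T1p. Isg20, Rtp4 and Samd9l, the genes that leaned toward granulocytic-like cells as a whole, differed less, with log2 ratios of 2.19, 2.16 and 1.49 in 4T1p and 2.09, 2.19 and 1.42 in 4T1m. Oas1a had the lowest ratio in granulocytic-like cells of 4T1p (0.68, -0.37 to 1.72). In macrophage-like cells Ifit3 had the highest ratio in both libraries, at 2.47 in 4T1p and 4.45 in 4T1m. Bst2 and Oasl1, which macrophage-like cells carried at higher levels than granulocytic-like cells, had 0.86 and 1.04 in 4T1p and 1.07 and 1.06 in 4T1m. Cmpk2 in macrophage-like cells stood at 12.0 CPM in high and 3.05 CPM in other cells of 4T1p, and at 80.1 and 6.52 CPM in 4T1m.

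**Figure D4:**
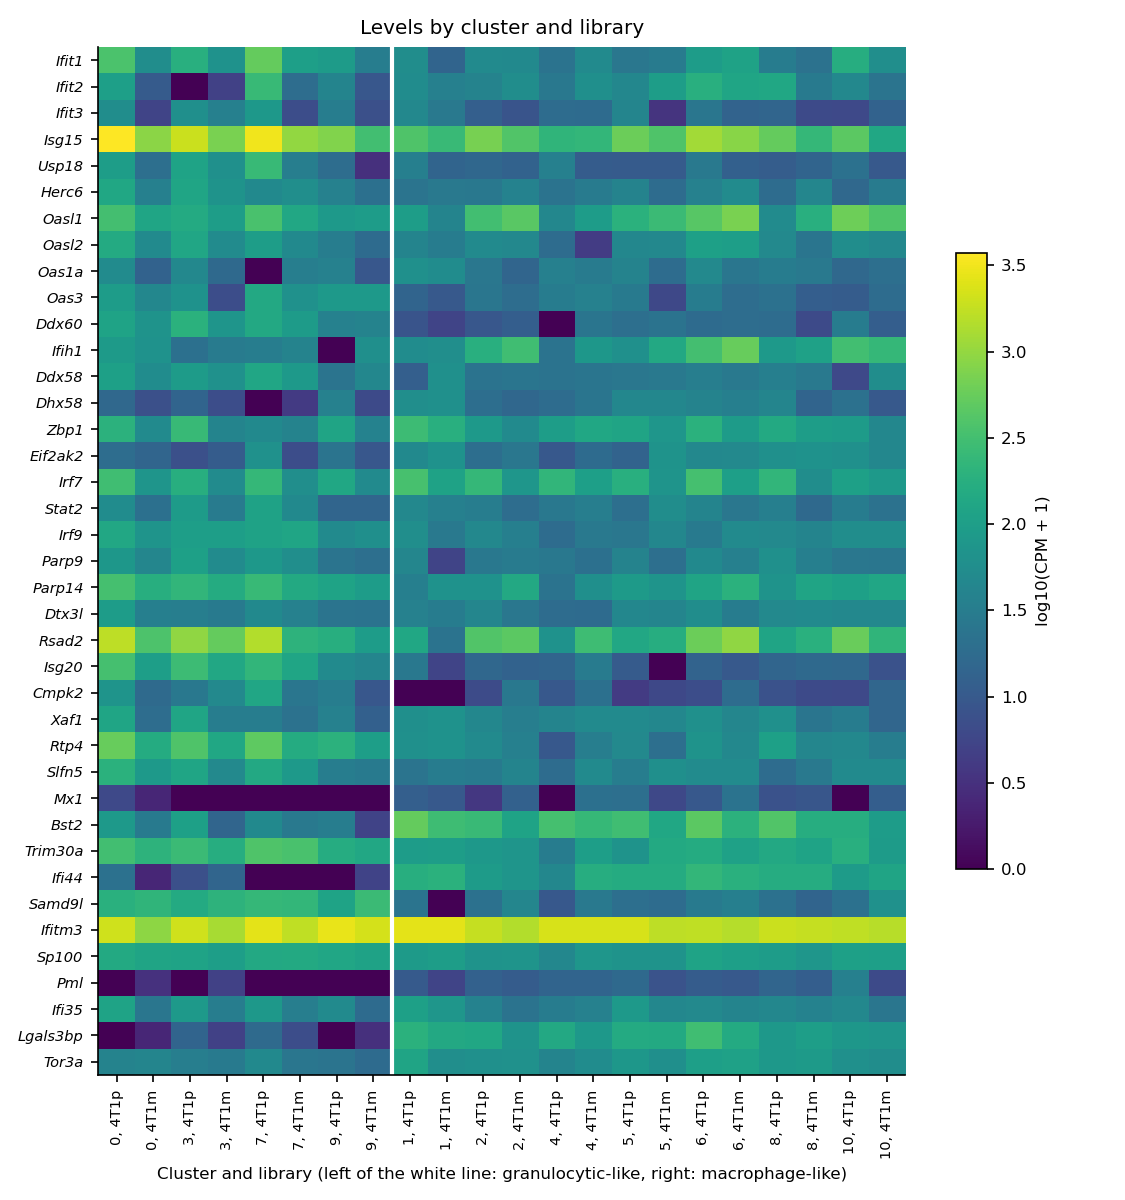
Levels of the 39 genes, as log10(CPM + 1), in each granulocytic-like (left of the white line) and macrophage-like cluster of both libraries, with genes in the order of their roles. Isg15, Rsad2 and Rtp4 are brightest in clusters 0, 3 and 7 of 4T1p, Ifih1 in macrophage-like clusters 2, 6 and 10, and Bst2 and Lgals3bp across macrophage-like clusters.

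The difference between the libraries in the summed level of granulocytic-like cells was present in each of their clusters, but not to the same size. Cluster 0, led by Mirt1, Il1f9 and Csf1, held a summed level of 12578 CPM (12229 to 12935) in 4T1p and 4207 CPM (4100 to 4317) in 4T1m, and 32 of its 34 tested members were lower in 4T1m. The share of all genes lower in 4T1m was not computed by cluster, so this count has no background to be read against. Cluster 3, led by Ccdc126, held 8898 and 4519 CPM, and cluster 7, with Steap4, Cxcr2 and Slfn4 among its leading genes, 12167 and 5336 CPM. Cluster 9, the cells with the granule genes Camp, Ngp and Ltf, held 5748 CPM (5436 to 6072) and 4113 CPM (3985 to 4245). The log2 ratio of the sum was -1.58, -0.98, -1.19 and -0.48 in clusters 0, 3, 7 and 9. In 4T1p the clusters thus spread from 5748 to 12578 CPM, and in 4T1m they lay between 4113 and 5336 CPM. Cluster 9 was the lowest in both. Ifitm3 alone gave 2081, 2093, 2635 and 2881 CPM of these sums in clusters 0, 3, 7 and 9 of 4T1p. In 4T1m it gave 918, 1274, 1696 and 2226 CPM, the most in cluster 9. The narrow range in 4T1m thus holds only for sums that include Ifitm3. Without Ifitm3 the range is wider, since cluster 9 had both the lowest sum and the most Ifitm3. Of the cells of 4T1p, 46.9% of 113 in cluster 0, 26 of 65 in cluster 3, 29.2% of 24 in cluster 7 and 18.5% of 27 in cluster 9 were interferon-high. In 4T1m the shares were 12.6% of 419, 10.5% of 228, 16.9% of 148 and 9.15% of 142. The intervals of these shares lay apart between the libraries in clusters 0 and 3. They overlapped in cluster 7 (12.6% to 51.1% in 4T1p and 11.2% to 23.9% in 4T1m). In cluster 9 they overlapped as well (6.30% to 38.1% and 4.97% to 15.1%). Rsad2 stood at 1675 CPM in cluster 0 of 4T1p and at 176 CPM in cluster 9, and at 371 and 92.3 CPM in the same clusters of 4T1m.

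Among macrophage-like clusters, cluster 6, with Siglec1, Cx3cr1, Ifnb1 and Cxcl9 among its leading genes, held the highest level in both libraries, at 7364 CPM (7246 to 7485) in 4T1p and 6796 CPM (6683 to 6910) in 4T1m. Its log2 ratio of 4T1m over 4T1p was -0.12 (-0.15 to -0.08), and 37.6% of 125 and 33.9% of 127 of its cells were interferon-high. Within it Rsad2 stood at 584 CPM in 4T1p and 957 CPM in 4T1m, Ifih1 at 315 and 544 CPM and Oasl1 at 444 and 715 CPM, all higher in 4T1m, while Isg15, at 1183 and 862 CPM, and Bst2, at 463 and 195 CPM, were higher in 4T1p. Cluster 2, with Sdc1, Il7r and Mmp12, held 5149 and 4461 CPM, with 16.3% of 92 and 11.8% of 280 cells high. The Cd163 and Lyve1 cluster 10 held 5499 and 4031 CPM, with 19.0% of 21 and 10.4% of 67 cells high. The low-RNA clusters held between 4095 and 6122 CPM in 4T1p and between 4127 and 5065 CPM in 4T1m. Cluster 4, led by Fabp5, was the only one of the 11 myeloid clusters whose sum was higher in 4T1m (log2 ratio 0.20, 0.08 to 0.32). Without the low-RNA clusters the share of interferon-high macrophage-like cells was 27.7% (22.1% to 33.9%) in 4T1p and 17.5% (14.2% to 21.2%) in 4T1m. Of the 39 members tested between the libraries in macrophage-like cells, 5 were then called lower in 4T1m and 2 higher. The share of all genes called was not computed without these clusters.

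**Figure D5:**
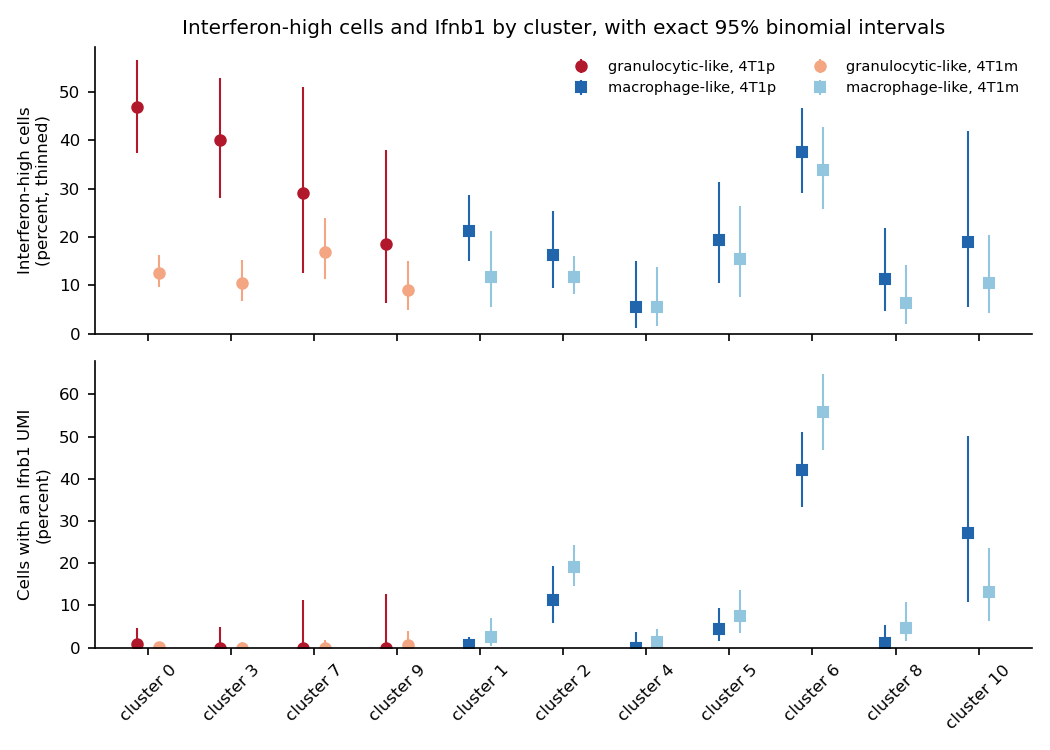
Share of interferon-high cells after thinning (upper) and share of cells with an Ifnb1 UMI, unthinned (lower), by cluster and library, with exact 95% binomial intervals. In granulocytic-like clusters 0 and 3 the points of 4T1p and 4T1m lie apart, at 46.9% and 12.6% in cluster 0, while Ifnb1 is found mainly in macrophage-like clusters 6, 2 and 10.

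Of the 20 interferon ligand genes listed, 4 had a UMI in the kept cells. Ifnb1, which encodes interferon beta, had 783 UMIs, Ifna2 had 7, Ifnk had 2 and Ifng, the type II ligand, had 25, the last only in T cell-like cells. Of the Ifnb1 UMIs, 270 lay in macrophage-like cells of 4T1p and 505 in those of 4T1m, against 1 and 6 in granulocytic-like cells. A UMI of Ifnb1 was found in 9.25% (7.39% to 11.4%) of macrophage-like cells of 4T1p and 15.5% (13.3% to 17.9%) of those of 4T1m, at median depths of 1638 and 4088 UMIs, and in 0.398% and 0.196% of granulocytic-like cells, at 2717 and 2482 UMIs. In cluster 6 the share was 42.1% (33.3% to 51.2%) in 4T1p and 55.9% (46.8% to 64.7%) in 4T1m. However, Ifnb1 was among the leading genes by which that cluster was described, and it was not left out of the clustering. The cells of cluster 6 were far deeper than granulocytic-like cells, with a median of 16656 UMIs, and thinned to 1000 UMIs these shares were 10.4% and 11.8%. The level of Ifnb1 in macrophage-like cells was 58.1 CPM in 4T1p and 69.8 CPM in 4T1m, a log2 ratio of 0.26 (0.05 to 0.48). Its UMIs came from 79 cells of 4T1p and 153 of 4T1m. The interval counts UMIs and does not cover the spread between cells, so no direction is read from it. Within cluster 6 of 4T1m, 33 of 71 cells with an Ifnb1 UMI were interferon-high (46.5%, 34.5% to 58.7%) and 10 of 56 without one (17.9%, 8.91% to 30.4%), at median depths of 16506 and 18624 UMIs. In 4T1p the counts were 22 of 53 (41.5%, 28.1% to 55.9%) and 25 of 72 (34.7%, 23.9% to 46.9%) at 17875 and 15044 UMIs, and the intervals overlapped widely. In cluster 2 of 4T1m they were 13 of 54 (24.1%, 13.5% to 37.6%) and 20 of 226 (8.85%, 5.49% to 13.3%), at 13202.5 and 10355 UMIs. In cluster 2 of 4T1p they were 2 of 11 (18.2%, 2.28% to 51.8%) and 13 of 81 (16.0%, 8.83% to 25.9%), at 15439 and 10574 UMIs. Those of cluster 10 were 2 of 6 and 2 of 15 in 4T1p, at 10745 and 6995.5 UMIs. For 4T1m they were 4 of 9 (44.4%, 13.7% to 78.8%) and 3 of 58 (5.17%, 1.08% to 14.4%), at 11364 and 6892 UMIs. The summed level of the members was lower with an Ifnb1 UMI in cluster 2 of 4T1p, at 4916 against 5192 CPM. It was higher with one in cluster 2 of 4T1m (6363 against 3889 CPM). In cluster 6 it was 8287 against 6560 CPM in 4T1p and 7738 against 5582 CPM in 4T1m. In cluster 10 it was 6631 against 4964 CPM and 7556 against 3237 CPM.

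The receptor genes were present in both lineages. Ifnar1 stood at 61.6 and 92.5 CPM in granulocytic-like cells of 4T1p and 4T1m and at 64.1 and 91.2 CPM in macrophage-like cells, and Ifnar2 at 136, 130, 104 and 82.8 CPM in the same order. Of the 9 listed receptor chains and kinases, 7 were tested between the libraries in granulocytic-like cells and none was called, with a median log2 ratio of 0.59. In macrophage-like cells 8 were tested, with a median of 0.19, and Jak2 was higher in 4T1m (1.22, 0.98 to 1.46). Of 6 signal transducers, 3 were lower in granulocytic-like cells of 4T1m by at least 2-fold, namely Irf5 (-1.54), Irf3 (-1.39) and Irf1 (-1.01). In macrophage-like cells none of the 6 was called. Of 12 upstream sensors and adapters 6 were tested in granulocytic-like cells, and Ikbke alone was lower (-1.10, -1.87 to -0.29). In macrophage-like cells 11 were tested and Tlr8, an endosomal RNA sensor, was higher in 4T1m (1.45, 0.88 to 2.07). Of the brakes, Socs1 (-2.09, -2.59 to -1.60) and Socs3, at 627 CPM in 4T1p and 313 CPM in 4T1m, which encode inhibitors of JAK kinases, were lower in granulocytic-like cells of 4T1m by at least 2-fold. In macrophage-like cells 6 brakes were tested, and Nlrc3 was higher in 4T1m (1.29, 0.26 to 2.46). Of all genes tested, 5.73% were lower and 8.79% higher in granulocytic-like cells of 4T1m by at least 2-fold. The same shares were 2.91% and 8.12% in macrophage-like cells.

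Further interferon-induced genes that are no members had a median of the same sign in granulocytic-like cells, nearer to 0. There 48 of 66 such genes were tested, and 16 were lower in 4T1m by at least 2-fold and none higher, with a median log2 ratio of -0.55. Of all genes tested there, 5.73% were lower and 8.79% higher by that much. Ube2l6, which encodes the enzyme that passes ISG15 on to its ligase, had the lowest ratio (-3.15, -4.26 to -2.13), followed by Trim21 (-2.74) and Oas1g (-2.06), while Ifitm1 had the highest (0.41, 0.36 to 0.47), then Slfn2 (0.37) and Trim25 (0.33). Of the genes that lean on interferon gamma, 28 were tested in granulocytic-like cells and 16 were lower by at least 2-fold, none higher, with a median of -1.06. Igtp (-2.35), Ifi47 (-2.27) and Socs1 had the lowest ratios, and Nos2 (0.08), Cxcl9 (-0.16) and Tap1 (-0.43) the highest. Irf1 and Socs1 are on this list and also among the transducers and brakes above. Of all genes tested in macrophage-like cells, 2.91% were lower and 8.12% higher by at least 2-fold. In these cells 8 of 62 and 7 of 33 genes of the 2 lists were lower by that much and 2 and 0 higher, with medians of -0.32 and -0.59. Both sets of interferon-induced genes thus had medians below 0 in both lineages, and responses to type I and type II interferon cannot be told apart from these values.

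Genes outside the list that went with the interferon-high cells were ranked by the lower bound of the log2 ratio of high over other cells, taking the smaller bound of the libraries. In granulocytic-like cells, where 1322 genes had at least 20 UMIs in the high cells of each library, the first 10 were Ifi47, Gm13822, Gbp5, Rnf213, Slfn4, Irgm1, Gbp2b, Trafd1, Gbp2 and Igtp, and 9 of the 10 were on the lists of interferon-induced genes, as were 45 of the 1322 (3.40%). Ifi47, an interferon-induced GTPase gene, stood at 544 CPM in high and 69.5 CPM in other cells of 4T1p and at 205 and 26.1 CPM in 4T1m. In macrophage-like cells, where 5076 genes were ranked, the first 10 were Ccl17, Ly6a, BC094916, Ms4a4c, Rnf213, Plac8, Gbp5, Ly6c2, Slfn1 and Ly6e, of which 5 were on those lists, as were 74 of the 5076 (1.46%). Ccl17, a chemokine gene of dendritic cells and some macrophages, stood at 26.5 CPM in high cells of 4T1p with no UMI in other cells, and at 16.8 and 0.343 CPM in 4T1m. Its levels in high cells came from 31 UMIs in 4T1p and 21 in 4T1m. The bounds behind the ranking count UMIs and do not cover the spread between cells. Ly6c2, which marks monocytes, stood at 68.5 and 15.6 CPM in 4T1p and at 64.9 and 23.5 CPM in 4T1m, and Plac8 at 461 and 189.7 CPM and at 679 and 182 CPM. Rnf213 and Gbp5 were among the first 10 in both lineages.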

How the data were processed

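The deposited files hold UMI counts per gene and cell barcode, whole numbers that the authors obtained with Cell Ranger (version 3.1.0 in the matrix headers, a version other than that in the study's methods) on mm10, per the submitters' notes. Every deposited barcode was read, 1641 in the library labelled 4T1p with 9021132 UMIs and 2749 in that labelled 4T1m with 14840190 UMIs. Barcodes with 250 to 5000 genes, at most 27000 UMIs and at most 12.5% UMIs of 13 mitochondrial genes were kept. Counts were normalized with SCTransform (Seurat 5.3.0, sctransform 0.4.2, R 4.3.3). Of the 3000 variable genes, those among the 142 listed interferon genes were left out, which left 2923. From these, 11 principal components were clustered by the Louvain method at resolution 0.8. A cluster was named from the class whose markers were found, on average, in the largest share of its cells. This mean had to be at least 25%, and at least 3 markers had to be found in at least 25% of the cells. Doublets were not removed, and Scrublet (scanpy 1.11.5) served as an alternative.

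From the deposited counts, UMIs were summed per group and given as CPM and as log2 ratios for genes with at least 20 UMIs in the pair of groups, a count of 0 being set to a floor of 3 counts. Exact Poisson and binomial intervals (scipy 1.17.1) at 95% cover counting error only. Percent values are shares of cells or barcodes computed from the deposited counts. Ratios and shares were tested on simulated data. With 1 library per condition no test between conditions was made, and depth limits sparse genes most, such as Mx1 and Pml.

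All members with at least 200 UMIs over both lineages were given values, the rest by counts, and of each further list those with the 3 highest and lowest ratios, together with the 10 genes that went most with interferon-high cells. Genes named for clusters, ligands, receptors and factors outside these rules were chosen after their values were seen. The members and lists were chosen with earlier results of these data known. One gene of the further lists is not reported here by name. Reads were not analysed here, and 17 alternatives were planned and 1 was added after seeing the data.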

Additional observations from a re-analysis of the deposited data

Results flagged for a closer look

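In 5 genes the ratio of 4T1m over 4T1p had intervals on opposite sides of 0 in the lineages, lower in granulocytic-like and higher in macrophage-like cells of 4T1m. The log2 ratios were -1.93 and 0.40 for Rsad2, -1.50 and 1.89 for Cmpk2, -1.02 and 0.56 for Oasl1, -0.78 and 0.73 for Parp14, and -1.40 and 0.41 for Herc6. The same count was not made over all genes, so it has no background to be read against. After thinning, the share of macrophage-like cells with a UMI was larger in 4T1m for Rsad2, Cmpk2, Oasl1 and Parp14. It was not for Herc6, at 3.53% in 4T1p and 3.40% in 4T1m. The difference between the lineages was not tested, since each library occurs once.

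Members were also counted in barcodes that the limits left out of every comparison. Barcodes over the limit on mitochondrial UMIs held a summed level of 4378 CPM (443 barcodes of 4T1p) and 3368 CPM (560 of 4T1m). Barcodes over 5000 genes or 27000 UMIs held 6424 CPM (57 of 4T1p) and 3629 CPM (58 of 4T1m). The kept barcodes held 6700.2 and 4739 CPM, so the library labelled 4T1p was higher in each of these sets.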

How the results depend on the processing

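The median log2 ratio of 4T1m over 4T1p stayed between -1.43 and -1.18 in granulocytic-like and between -0.52 and -0.22 in macrophage-like cells over 13 settings. Leaving out the low-RNA macrophage clusters, among these 13, could not change the values of granulocytic-like cells. The median log2 ratio of granulocytic-like over macrophage-like cells depended on the scaling. Relative to the median of all genes it was 1.65 in 4T1p and 1.16 in 4T1m, and in 4T1m it was 0.24 both with the mean of the cells' own CPM and with totals without the most abundant genes, against -0.13. A stricter cell limit, at most 5% mitochondrial UMIs, moved it the other way in 4T1m, to -0.54. The share of interferon-high cells moved with every setting of depth and threshold, given here for granulocytic-like cells of 4T1p and 4T1m and macrophage-like cells of 4T1p and 4T1m. It was 21.5%, 4.71%, 5.85% and 3.95% after thinning to 500 UMIs and 58.4%, 27.9%, 44.2% and 37.1% at 2000 UMIs. From 3 scoring members it was 52.8%, 24.3%, 39.7% and 28.2%, from 6 it was 17.0%, 3.84%, 4.76% and 3.66%, and with the reading members scoring it was 17.9%, 4.70%, 4.59% and 2.09%. The share in 4T1p stayed above that in 4T1m in both lineages, but in macrophage-like cells the intervals of the libraries overlapped in 5 of 13 settings (both other depths, from 6 members, with the reading members scoring and at most 5% mitochondrial UMIs). In macrophage-like cells of 4T1p it was 26.6% among cells with a Ptprc UMI. Without the low-RNA clusters, an alternative chosen after seeing the data, it was 27.7% in 4T1p and 17.5% in 4T1m. The other 79 values moved by less than their limits. No paired analysis was possible because each condition has 1 library. The labels of the libraries, and free RNA, were not tested.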

Other observations

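Outside the named lineages, cluster 11, which carried Igfbp7, Rgs5 and Sparc among its leading genes and was left unnamed, held the members at 5443 CPM (4792 to 6158) in 15 cells of 4T1p and 2318 CPM (2064 to 2594) in 29 cells of 4T1m. T cell-like cells held 1470 CPM (1137 to 1870) in 7 cells of 4T1p and 1826 CPM in 22 cells of 4T1m, and a UMI of Ifng was found in them alone.

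The ratio of 4T1m over 4T1p was also split by the ISRE core in the promoter window. In granulocytic-like cells the median log2 ratio was -1.12 over 15 members with a core and -1.40 over 14 without, and in macrophage-like cells -0.28 over 15 and -0.42 over 16.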
